A study of Mus musculus with 13 samples.

Results

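The response examined here is the one to loss of casein kinase Iα (CKIα, gene Csnk1a1) that mouse enterocytes showed in each of 3 genetic backgrounds. Arrays were chosen by their titles: 6 arrays of CKIα KO gut and 6 of CKIα Het gut, 12 of the 13 arrays in the series. In mice that kept p53 and p21, CKIα KO was set against CKIα Het; in the other backgrounds CKIα KO/p21 KO was set against CKIα Het/p21 KO, and CKIα KO/p53 KO against CKIα Het/p53 KO, with 2 arrays in each of the 6 groups. All 6 groups carried a knockout of CKIα restricted to the gut on at least 1 allele, so no gut with both CKIα alleles intact entered, and all mice were of the 129/SVJ strain background. The labels give 2 biological replicates for each group, and do not name the driver of the gut deletion, the segment of gut or the age of the mice. The 13th array has a title and genotype labels that disagree, and it was left out. The genes described are those whose difference between KO and Het had the same sign in all 3 backgrounds, 8297 of 16721 genes tested.

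CKIα places the first phosphate on β-catenin, the co-activator of Wnt signalling, which lets the destruction complex mark it for degradation. In the intestine Wnt signalling keeps crypt cells dividing, and cells that leave the crypt become absorptive enterocytes or secretory goblet, enteroendocrine, Paneth and tuft cells. p53 is a transcription factor that halts or kills stressed cells, and p21, the product of one of its target genes, blocks cyclin-dependent kinases. Comparing the loss of CKIα across backgrounds asks which part of the response was present whether or not p53 and p21 were there.

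The deposited values are log2 intensities, with a median of 4.96 to 5.12 on each array. The p-values measure only the scatter of replicate samples, whose SD was between 0.204 in CKIα Het and 0.341 in CKIα KO/p21 KO. Csnk1a1 lay between 10.55 and 10.80 on the KO arrays, against 10.44 and 10.78 on the Het arrays (average log2 difference 0.01 ± 0.08, SE). Csnk1a1 thus did not fall on the KO arrays, and the reason was not tested. Its values check no genotype, and Trp53 and Cdkn1a had no probe set of their own. On each array the median log2 value of 22 absorptive enterocyte markers was between 11.06 and 11.96 in KO gut, against 11.93 and 12.33 in Het gut. That of 10 endothelial markers, at 4.33 to 4.63 in KO gut and 4.28 to 4.66 in Het gut, was below the array median throughout. Other lists reached above it. Lymphocyte markers were at 5.08 to 6.64 in KO and 5.87 to 6.95 in Het. Fibroblast and smooth muscle markers were at 4.92 to 6.21 and 4.51 to 6.48, and myeloid markers at 4.41 to 5.44 and 4.44 to 5.41. Xist, an RNA made by the inactive X in females, was 3.15 to 3.94 on the replicate 1 arrays and 8.91 to 10.1 on the replicate 2 arrays, so each group held 1 array of each kind.

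CKIα KO gut differed from CKIα Het gut in many genes that shared their direction across the backgrounds. A gene was called when the average of the 3 KO minus Het differences had an adjusted p under 0.05 (limma, Benjamini-Hochberg over all genes tested). Of all genes tested, 4084 (24.4%) were called, 2585 higher in KO (15.5%) and 1499 lower (8.96%). Of those called, 3653 (21.8% of all genes tested) had the same sign in all 3 backgrounds, 2279 higher (13.6%) and 1374 lower (8.22%), and the other 431 changed sign in 1 background. These 2 shares are the background against which the gene lists below are read. A shared sign, whether or not the gene was called, was found in 49.6% of all genes tested.

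Within every background, both KO arrays lay above both Het arrays for 1346 genes (8.05%) and below both for 778 genes (4.65%). All 6 KO arrays lay above all 6 Het arrays for 625 genes (3.74%) and below them for 328 (1.96%), 5.7% together. Of the called genes with a shared sign, 1229 higher and 658 lower showed this separation within every background. A more demanding test, which takes the largest of the 3 backgrounds' p-values for each gene, called 0 genes after adjustment by limma, and 463 genes (2.77%) had an unadjusted p under 0.05 in all 3, 298 of them higher (1.78%) and 165 lower (0.987%). The statement that a gene changed therefore holds for the average, and its shared direction is a description.

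The number of calls depended on the p53 KO background. Tested one background at a time, limma called 4 genes higher (0.0239%) and 0 lower with both genes, where 1520 (9.09%) had an unadjusted p under 0.05, 588 of them lower (3.52%). It called 244 higher (1.46%) and 86 lower (0.514%) without p21, 1.97% together, and 1841 higher (11%) and 1140 lower (6.82%) without p53, 17.8% together. Averaged without it, 390 genes were called higher and 186 lower with a shared sign, and 576 of these were also called on all 3 backgrounds. Of the 136 genes named here that were called, 74 kept their direction but did not pass on that average, among them Lct, Prox1, Plk1, Mcm2, Bche, Il15 and H2-Ab1. Another 2, Dglucy and Cyp1b1, reversed direction on it. Cybrd1, Slc40a1, Nox1, Akr1b8, Scd2, Fasn, Sqle, Axin2, Slc5a4a, Sst, Chga and Tff3 passed there too. Averaged without the p21 KO background the counts were 1300 and 747, and without the background holding both genes 2154 and 1273. Called genes with a shared sign were 1410 higher and 843 lower without CKIα KO replicate 2, and 909 lower without CKIα Het/p21 KO replicate 2. Of all calls, 1718 were higher and 987 lower without CKIα Het replicate 1, 1694 and 972 without CKIα Het/p21 KO replicate 2, and the lower calls were 960 without CKIα KO replicate 2 and 998 without CKIα Het/p53 KO replicate 1. The separated genes were 2395 above and 1586 below without CKIα KO replicate 1, where a single KO array had to pass in that background.

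Cybrd1 and Slc40a1, which act in iron uptake and export, were among the leading genes that rose. Cybrd1, the ferric reductase of the duodenal brush border, rose 37.0-fold on average (log2 5.21 ± 0.58, SE, 2 arrays per group, limma adjusted p = 0.00192). Its log2 values were 7.72 and 11.81 in CKIα KO, against 5.24 and 5.29 in CKIα Het. With p21 knocked out they were 9.94 and 10.25 in KO and 5.60 and 5.23 in Het, and with p53 knocked out 12.60 and 11.90 in KO and 6.55 and 5.07 in Het. All 6 KO arrays were above all 6 Het arrays, and the lowest of them was CKIα KO replicate 1. Slc40a1, the iron exporter ferroportin, rose 16.0-fold (4.0 ± 0.43, adjusted p = 0.00176), with the lowest, median and highest log2 values at 8.07, 10.26 and 11.58 in KO and 5.37, 5.91 and 6.83 in Het. Slc46a1, which takes up folate and haem, rose by 0.96 ± 0.22, and Aco1, the cytosolic aconitase that also senses iron, fell by 0.63. Of 14 iron handling genes measured, these 3 rose and 2 fell.

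**Figure D1:**
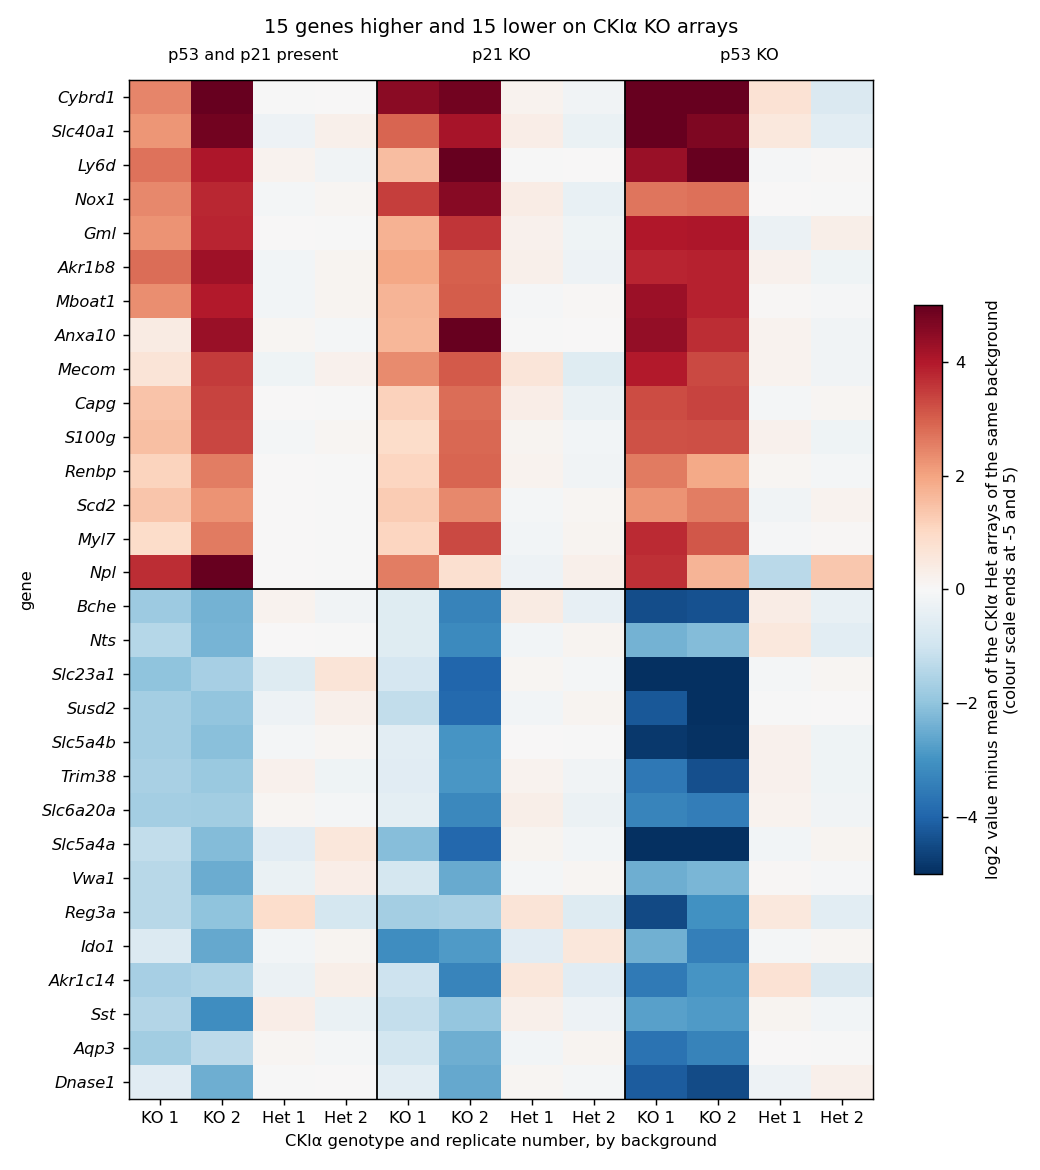
Heat map of the log2 value of each array minus the mean of the 2 CKIα Het arrays of the same background, for 15 genes higher and 15 lower on KO arrays; columns are single arrays, KO left of Het in each background, and colours end at -5 and 5. By the rule that chose these genes, every row holds 1 colour across the 6 KO columns. CKIα KO replicate 1 and CKIα KO/p21 KO replicate 1 are often the palest KO columns.

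The leading genes were drawn from called genes with a shared sign whose KO arrays lay beyond the Het arrays within every background. They were ranked by the smallest of their 3 background differences, so they come first by the rule and their sizes are a description. Among the 15 higher genes were Ly6d, a surface protein of progenitor cells (3.83 ± 0.54), Anxa10, an annexin of gastric epithelium (3.28 ± 0.70), and Mboat1, a lysophospholipid acyltransferase (3.20 ± 0.29). Mecom, a zinc finger transcription factor, rose by 2.80 ± 0.43, Capg, which caps actin filaments, by 2.57 ± 0.35, and S100g, the vitamin D-induced calcium-binding protein calbindin, by 2.51 ± 0.36. Renbp (2.02 ± 0.33) and Npl (2.90 ± 0.52) encode 2 enzymes of the sialic acid and amino sugar pathway. Myl7, a myosin light chain known from the heart atrium, rose by 2.46 ± 0.38, and Gml, a glycolipid-anchored protein, by 3.23 ± 0.33. In these 15 genes, log2 differences were between 1.76 and 4.50 in mice that had both genes, 1.70 and 4.68 in the p21 KO background, and 2.24 and 6.44 in the p53 KO background.

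By the rule that chose these genes, both KO arrays were above both Het arrays within each background. Over all 12 arrays the ranges overlapped in Mecom and Npl. Npl was already high in the Het gut without p21, at 10.57 and 8.81 in CKIα KO/p21 KO against 7.75 and 8.24 in CKIα Het/p21 KO, while CKIα Het had 4.69 and 4.68.

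Nox1, Noxo1, Duox2 and Duoxa2, of 12 oxidase genes and partners measured, rose with a shared sign, and 1 of the 12 fell. The median of the 12 was 0.27 with both genes, 0.05 without p21 and 0.06 without p53. Nox1, the catalytic subunit of a superoxide-producing oxidase, rose 9.63-fold (3.27 ± 0.26, adjusted p = 0.000856). Its log2 values were 7.16 and 8.52 in CKIα KO against 4.66 and 4.85 in CKIα Het, 8.43 and 9.52 in CKIα KO/p21 KO against 5.34 and 4.61 in CKIα Het/p21 KO, and 8.60 and 8.67 in CKIα KO/p53 KO against 5.94 and 5.91 in CKIα Het/p53 KO. All KO values were above all Het values, and the highest Het values were those of CKIα Het/p53 KO. Noxo1, which organises the Nox1 complex, rose by 0.71 ± 0.12. Duoxa2 and Duox2, the maturation factor and the enzyme that release hydrogen peroxide, rose by 2.82 ± 0.19 and 2.26 ± 0.19.

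Duox2 was 10.08 and 9.71 in CKIα KO against 5.64 and 6.41 in CKIα Het, and 8.44 and 7.70 in CKIα KO/p53 KO against 5.54 and 6.20 in CKIα Het/p53 KO. With p21 knocked out it was 8.71 and 8.98 in KO and 7.97 and 8.32 in Het, so the Het arrays there were the highest of the Het arrays. Duox2 and Duoxa2 are neighbours on the chromosome. The aldo-keto reductase Akr1b8 rose 9.67-fold (3.27 ± 0.26), and the antioxidant genes Gpx2, a gut glutathione peroxidase, Gsr, glutathione reductase, and Slc7a11, the cystine importer, rose by 1.99 ± 0.23, 0.98 ± 0.13 and 1.08 ± 0.13. Of 20 antioxidant and aldo-keto reductase genes, 5 rose and 2 fell. Akr1b8 has close paralogs whose transcripts its probes may share.

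**Figure D2:**
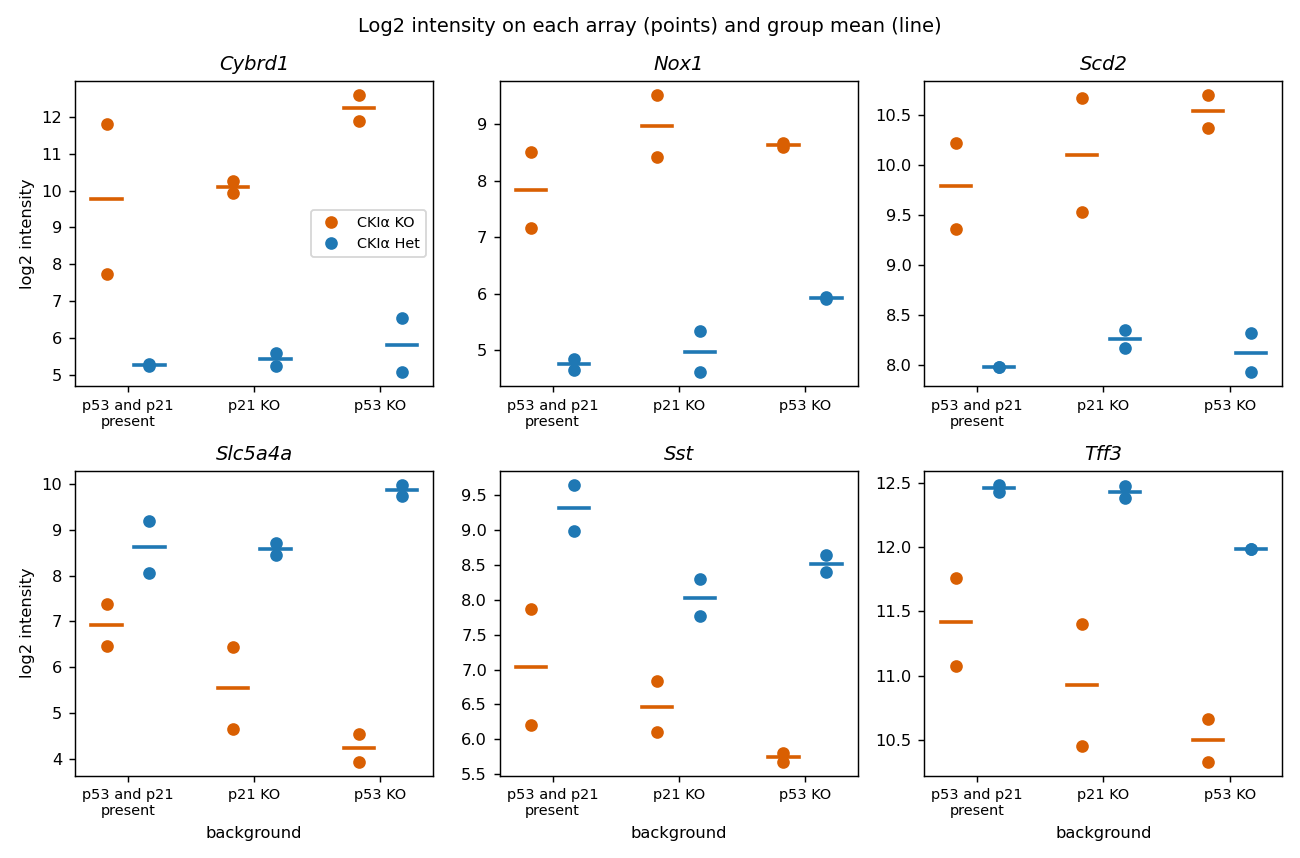
Log2 intensity of 6 genes on each of the 12 arrays (points) with the mean of the 2 arrays of a group (line), CKIα KO left of CKIα Het within each background. Cybrd1, Nox1 and Scd2 lie higher on both KO arrays in each background, and Slc5a4a, Sst and Tff3 lie lower. All but Tff3 are leading genes, for which the rule required this.

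Genes of cholesterol and fatty acid synthesis rose together, with differences of like size in the 3 backgrounds. Of 18 measured, 15 rose with a shared sign and 0 fell, against 13.6% of all genes tested that rose so. In 13 of them both KO arrays were above both Het arrays in every background. The median member differed by a log2 of 0.73 with both genes present, 0.72 without p21 and 1.03 without p53, where the median of all genes tested was 0.02, -0.01 and -0.06. Averaged without the p53 KO background, 8 of the 18 were called. The members measured and not counted were Insig1, which holds back sterol synthesis and changed sign with p21 knocked out, Dhcr7, a late enzyme of cholesterol synthesis, and Srebf1, a transcription factor of lipid synthesis (average -0.12 ± 0.09 for Dhcr7 and -0.37 ± 0.19 for Srebf1).

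Scd2, a stearoyl-CoA desaturase, rose 4.05-fold (2.02 ± 0.21, adjusted p = 0.00157). Its log2 values were 9.36 and 10.21 in CKIα KO against 7.98 and 7.98 in CKIα Het, 9.53 and 10.67 in CKIα KO/p21 KO against 8.17 and 8.35 in CKIα Het/p21 KO, and 10.37 and 10.70 in CKIα KO/p53 KO against 7.93 and 8.32 in CKIα Het/p53 KO. The lowest KO array was more than a log2 unit above the highest Het array. Fatty acid synthase (Fasn) rose 2.37-fold (1.24 ± 0.15), with lowest, median and highest values of 8.02, 8.50 and 8.86 in KO and 7.0, 7.17 and 7.60 in Het. Acaca, which makes its malonyl-CoA substrate, rose 1.83-fold (0.87 ± 0.11), and Sqle, the squalene epoxidase of cholesterol synthesis, rose 2.35-fold (1.23 ± 0.16).

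The promoters of 3 members are shown because genes of sterol synthesis are known to carry CCAAT boxes, bound by NF-Y, beside sites for the sterol-sensing SREBP factors. They were chosen after the values were seen. Hmgcs1, the synthase that supplies the mevalonate pathway, rose by 0.47 ± 0.11, Idi1, an isomerase of that pathway, by 0.69 ± 0.12, and Cyp51, a sterol demethylase, by 0.90 ± 0.21. Averaged without the p53 KO background, these 3 kept their direction but did not pass. Sequences run from 250 bases before to 50 bases after the annotated start, from RefSeq on GRCm38.p6, at chr13:119690101-119690400 on the plus strand for Hmgcs1, chr13:8885356-8885655 on the plus strand for Idi1 and chr5:4104648-4104947 on the minus strand for Cyp51. Capitals mark CCAAT on either strand and, in Hmgcs1, the sterol element TCACNCCAC.
Hmgcs1: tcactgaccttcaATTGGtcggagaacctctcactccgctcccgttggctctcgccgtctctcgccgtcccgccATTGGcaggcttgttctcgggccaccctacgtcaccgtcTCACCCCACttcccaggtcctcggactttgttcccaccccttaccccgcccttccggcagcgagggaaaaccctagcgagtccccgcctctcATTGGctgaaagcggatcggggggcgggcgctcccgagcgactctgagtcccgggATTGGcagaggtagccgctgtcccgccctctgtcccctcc
Idi1: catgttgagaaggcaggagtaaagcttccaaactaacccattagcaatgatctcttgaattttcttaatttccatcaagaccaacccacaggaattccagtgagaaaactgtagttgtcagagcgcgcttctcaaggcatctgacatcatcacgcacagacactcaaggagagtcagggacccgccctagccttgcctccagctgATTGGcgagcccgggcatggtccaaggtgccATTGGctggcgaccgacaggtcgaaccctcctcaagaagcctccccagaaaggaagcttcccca
Cyp51: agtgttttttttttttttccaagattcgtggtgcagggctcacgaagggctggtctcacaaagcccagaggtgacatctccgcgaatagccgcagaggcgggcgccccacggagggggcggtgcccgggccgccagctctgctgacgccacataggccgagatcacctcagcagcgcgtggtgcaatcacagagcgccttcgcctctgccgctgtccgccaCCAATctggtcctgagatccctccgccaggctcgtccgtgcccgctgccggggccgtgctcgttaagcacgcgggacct

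Hmgcs1 held 4 CCAAT boxes, Idi1 held 2 and Cyp51 held 1. Of the 15 genes that rose, 10 had a promoter entry, and CCAAT was found in 8 of them (Hmgcs1, Idi1, Mvd, Lss, Cyp51, Srebf2, Fasn and Acly), where 37.4% of the 32851 promoters in the table hold it on either strand. The sterol element was searched after the values were seen, and was found in 1 of the 10, Hmgcs1, and in 1.24% of all promoters. The TCF/LEF letters CTTTGAT were found in 0 of the 10, in 1 of 11 promoters of the leading higher genes (Mecom) and in 3.73% of all promoters. The E-box CACGTG was in 3 of 13 promoters of the Myc and ribosome genes that rose (Pes1, Utp20 and Mybbp1a) and in 7.15% of all promoters. Among genes that fell, CACGTG was in 2 of 8 promoters of the sugar genes, CTTTGAT in 1 of 11 of the leading lower genes (Reg3a) and CCAAT in 6 of those 11. Both strands were searched for each motif, and a match of letters is not a bound site.

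Wnt/β-catenin targets and feedback inhibitors rose in part. Of 21 targets measured, 12 rose with a shared sign and 0 fell, with medians of 0.29 with both genes, 1.02 without p21 and 1.11 without p53. Without CKIα KO replicate 2 the count was 6, and averaged without the p53 KO background it was 2. The cyclin Ccnd2 rose 3.14-fold (1.65 ± 0.18), the adhesion receptor Cd44 5.07-fold (2.34 ± 0.34), the transcription factor Prox1 3.84-fold (1.94 ± 0.29) and Lef1, a partner of β-catenin on DNA, 2.28-fold (1.19 ± 0.20). Prox1 differed by a log2 of 0.29 with both genes, 2.21 without p21 and 3.32 without p53.

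Of 14 feedback inhibitors, 7 rose and 1 fell, with medians of 0.16 with both genes, 0.12 without p21 and 1.41 without p53. Axin2, the scaffold of the destruction complex induced by the pathway it restrains, had log2 values of 8.17 and 8.75 in CKIα KO against 7.14 and 7.18 in CKIα Het, 8.75 and 9.35 in CKIα KO/p21 KO against 7.22 and 7.04 in CKIα Het/p21 KO, and 9.20 and 9.23 in CKIα KO/p53 KO against 6.73 and 7.0 in CKIα Het/p53 KO. It rose 3.62-fold on average (1.86 ± 0.13, adjusted p = 0.000707), and no KO array overlapped a Het array. Rnf43, a ligase that removes Wnt receptors, rose by 1.59 ± 0.18 and Nkd1, an inhibitor of Dishevelled, by 1.71 ± 0.24. Wif1, which binds secreted Wnt, was called (0.63 ± 0.12) but was -0.02 with both genes present. Of 14 genes of the destruction complex and the CK1 family, 0 passed on the average by limma and 7 had an unadjusted p under 0.05. Csnk1e, another kinase of the family, was at 0.42 ± 0.14 and Gsk3a, a kinase of the complex, at -0.24 ± 0.08, and both passed without CKIα KO/p21 KO replicate 1.

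Genes of ribosome production followed. Of 21 genes on the Myc and ribosome biogenesis list, 19 rose with a shared sign and 0 fell, and 12 were separated in every background. The medians were 0.40 with both genes, 1.23 without p21 and 1.48 without p53. Averaged without the p53 KO background, 9 were called. Utp20, of the small-subunit processome, rose 2.42-fold (1.28 ± 0.14), with lowest, median and highest values of 6.91, 7.55 and 8.28 in KO and 6.03, 6.11 and 6.68 in Het. Ddx21, a nucleolar helicase, rose 2.52-fold, Mybbp1a, a nucleolar Myb-binding protein, 2.34-fold and Rrp12, an export factor of ribosomal subunits, 1.95-fold. Rrp12 differed by much the same in the 3 backgrounds, at 0.84, 0.98 and 1.07. Amino acid and polyamine genes moved with them: of 13, 6 rose and 1 fell, among them Psat1 of serine synthesis (1.20 ± 0.11), Asns, asparagine synthetase (1.05 ± 0.12), the amino acid carrier Slc7a5 (1.00 ± 0.16) and spermidine synthase, Srm (1.13 ± 0.20). Of 13 glycolysis genes, 7 rose and 0 fell, led by the aldolases Aldoa (0.86 ± 0.17) and Aldoc (1.18 ± 0.26), the hexokinase Hk2 (1.02 ± 0.23) and Pgk1 (0.42 ± 0.11). Pgk1 did not pass without any 1 of 8 of the 12 arrays, CKIα KO replicate 2 and CKIα Het replicate 1 among them. Glycolysis medians were 0.18 with both genes, 0.30 without p21 and 0.51 without p53. Tested one background at a time, limma called 0, 0 and 4 glycolysis genes higher, in the same order. Slc7a5, Srm, Aldoa, Aldoc, Hk2 and Pgk1 did not pass averaged without the p53 KO background.

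**Figure D3:**
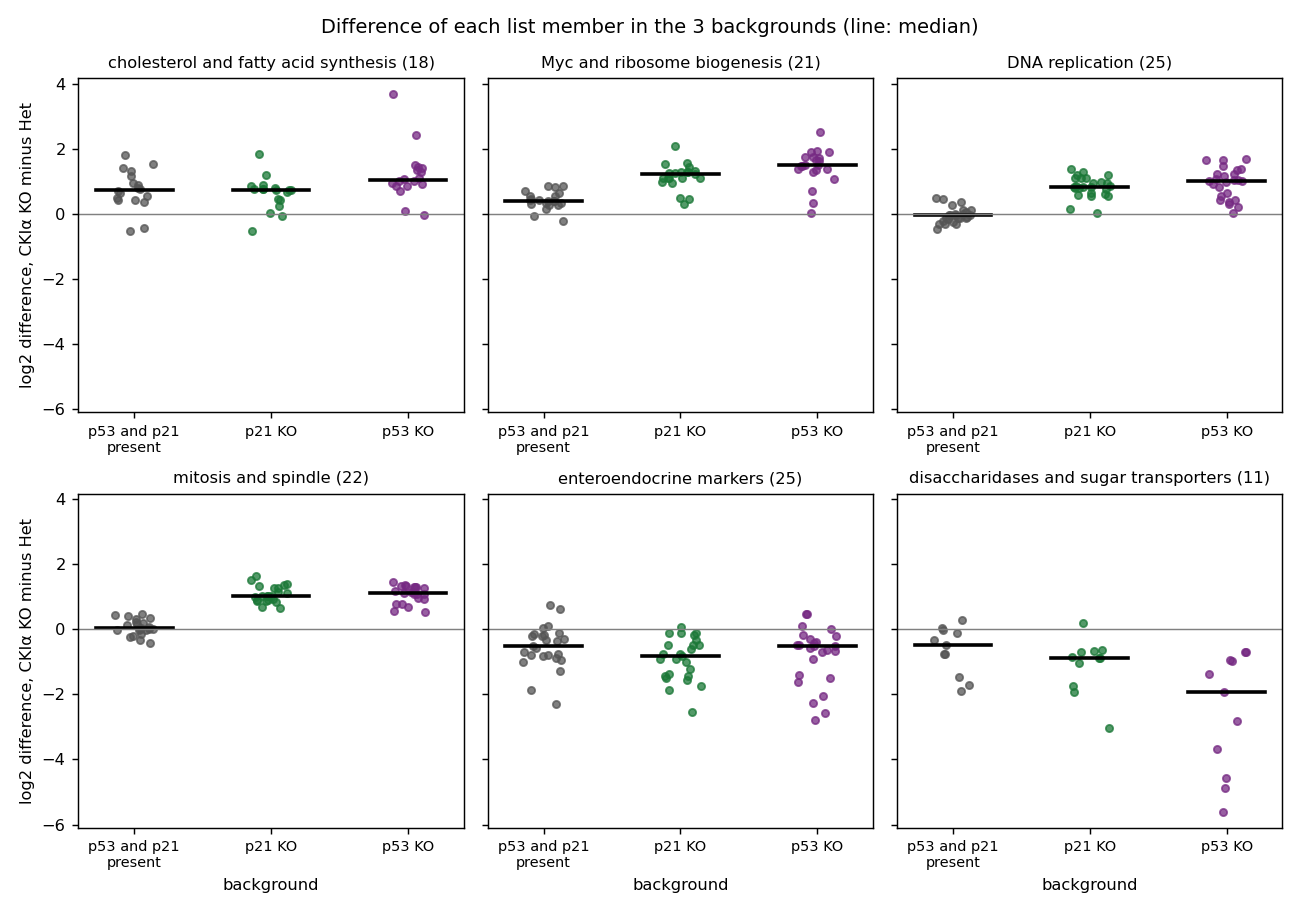
Log2 difference, CKIα KO minus CKIα Het, of each measured member (points) of 6 gene lists in the 3 backgrounds, with the median as a line and the number of members in brackets. The medians for cholesterol and fatty acid synthesis lie at 0.73, 0.72 and 1.03, while those for DNA replication lie at -0.05, 0.83 and 1.00 and those for mitosis and spindle at 0.04, 1.03 and 1.12.

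Many cell cycle genes were called on the average without sharing a sign. On the mitosis and spindle list 19 of 22 genes were called higher and 12 of them had a shared sign, with medians of 0.04 with both genes, 1.03 without p21 and 1.12 without p53. On the DNA replication list 16 of 25 were called higher and 6 had a shared sign, with medians of -0.05, 0.83 and 1.00. The replication count was 2 without CKIα Het replicate 1 and 13 without CKIα Het replicate 2. Averaged without the p53 KO background, 1 mitosis gene and 0 replication genes were called by limma with a shared sign.

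Plk1, a mitotic kinase, was 7.85 and 7.52 in CKIα KO against 7.44 and 7.46 in CKIα Het, 8.08 and 8.79 in CKIα KO/p21 KO against 7.40 and 6.67 in CKIα Het/p21 KO, and 8.93 and 8.82 in CKIα KO/p53 KO against 7.28 and 7.58 in CKIα Het/p53 KO. It rose by 1.03 ± 0.16 on average. Mcm2, which licenses replication origins, was 7.03 and 7.03 in CKIα KO against 6.96 and 7.19 in CKIα Het, and 8.05 and 8.78 in CKIα KO/p21 KO against 7.09 and 7.14 in CKIα Het/p21 KO. With p53 knocked out it was 8.37 and 8.14 in KO and 7.24 and 7.27 in Het. Mcm2 thus passed on the average (0.75 ± 0.12) while its KO and Het arrays overlapped where p53 and p21 were both present. The kinases Bub1 and Aurka, the motor protein Cenpe and the licensing gene Mcm7 rose with a shared sign, by 1.08 ± 0.17, 0.78 ± 0.15, 1.04 ± 0.19 and 0.89 ± 0.16. Mcm2, Mcm3 and the reductase subunit Rrm1 were called and changed sign. The difference among backgrounds was not called for Plk1 or Mcm2 by limma's F test (adjusted p = 0.387 and 0.312). Of 17 DNA damage and repair genes, 6 rose with a shared sign, Brca1 among them (0.95 ± 0.15), and Cdkn1c was the 1 of 6 CDK inhibitors that rose (0.42 ± 0.10).

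p53 targets divided by whether their sign held without p53. Of 28 measured, 14 were called higher, 8 of them with a shared sign, and 2 fell with a shared sign. Eda2r, a receptor of the TNF receptor family, was 4.87 and 6.11 in CKIα KO against 3.75 and 3.44 in CKIα Het, and 6.62 and 7.55 in CKIα KO/p21 KO against 3.27 and 3.42 in CKIα Het/p21 KO. With p53 knocked out it was 3.21 and 3.25 in KO and 3.43 and 3.32 in Het. Ccng1, a cyclin, differed by 1.43, 2.09 and -0.23 in the same order of backgrounds, and Psrc1, a spindle protein, by 1.36, 3.07 and 0.04. Zmat3, an RNA-binding protein, kept its sign (1.42, 2.21 and 0.27). For Eda2r, Ccng1, Psrc1 and Zmat3 the unadjusted p of the F test among backgrounds was 0.000111, 0.000117, 0.000210 and 0.000695, and none passed after adjustment (adjusted p of 0.15 for Eda2r).

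Many genes of enterocyte digestion and uptake fell. Of 11 disaccharidases and sugar transporters, 8 fell with a shared sign and 0 rose, against 8.22% of all genes tested that fell so. The medians were -0.48 with both genes, -0.87 without p21 and -1.91 without p53. The count was 4 without CKIα KO replicate 2 and 5 without any 1 of CKIα KO/p21 KO replicate 2, CKIα KO/p53 KO replicate 2, CKIα Het replicate 2, CKIα Het/p21 KO replicate 1 and either CKIα Het/p53 KO replicate. It was 2 averaged without the p53 KO background.

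Slc5a4a, a relative of the intestinal glucose transporter SGLT1, was 7.39 and 6.46 in CKIα KO against 8.05 and 9.20 in CKIα Het, 6.45 and 4.65 in CKIα KO/p21 KO against 8.72 and 8.44 in CKIα Het/p21 KO, and 3.93 and 4.55 in CKIα KO/p53 KO against 9.75 and 9.99 in CKIα Het/p53 KO. It was 11.0-fold lower on average (-3.45 ± 0.32, adjusted p = 0.00119), and the KO arrays did not reach the Het arrays. Its neighbour and paralog Slc5a4b was 7.19-fold lower (-2.85 ± 0.33), and probes of the pair may share transcripts. Lactase (Lct) was 6.28-fold lower (-2.65 ± 0.55), with lowest, median and highest values of 6.84, 9.19 and 11.59 in KO and 11.67, 12.11 and 12.36 in Het. The inositol transporter Slc5a11 fell by 1.76 on the log2 scale.

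Of 17 brush border peptidases and amino acid transporters, 11 fell and 0 rose, among them the aminopeptidase Enpep (-1.10 ± 0.14), the proton-coupled carrier Slc36a1 (-1.83 ± 0.27), the proline carrier Slc6a20a (-2.33 ± 0.37) and the peptidase Ace (-2.04 ± 0.33). Their medians were -0.32 with both genes, -0.66 without p21 and -1.71 without p53. Tested one background at a time, limma called 0, 0 and 12 of them lower, in the same order. Of 12 genes of vitamin uptake, 6 fell and 1 rose. They included Lrat, which stores retinol as esters (-1.38 ± 0.18), Slc23a1, a vitamin C transporter (-3.23 ± 0.45), and the pair that takes up vitamin B12 complexes, Amn (-1.03 ± 0.15) and Cubn (-2.66 ± 0.41). Of 22 absorptive enterocyte markers, which include genes of these lists, 12 fell and 0 rose. Of 22 genes of lipid absorption and oxidation, 8 fell and 1 rose, with the fatty acid carrier Slc27a4 at -1.01 ± 0.18, the sphingomyelinase Enpp7 at -2.97 ± 0.53, the sterol exporter Abcg5 at -1.06 ± 0.22 and Asah2, an intestinal ceramidase, at -1.24 ± 0.26. These absorption genes thus fell while genes that synthesise fatty acids and sterols rose on the same arrays. In the same order of backgrounds, medians were -0.17, -0.24 and -0.62 for vitamin uptake. For lipid absorption and oxidation they were -0.16, -0.46 and -1.12. No gene named in this paragraph passed averaged without the p53 KO background, though each kept its direction.

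Of 21 xenobiotic genes, 9 fell and 0 rose, with Ugt2b36, a glucuronosyltransferase, at -1.90 ± 0.27 and the carboxylesterase Ces2a at -1.65 ± 0.25. Of 20 transcription factors of enterocytes, 7 fell and 1 rose. Ppargc1a, a co-activator of mitochondrial genes, fell by 1.63, Maf by 0.79 and Hnf4g by 0.95, while Onecut2 rose by 0.60 ± 0.09. Medians of the transcription factors were -0.08 with both genes, -0.15 without p21 and -0.57 without p53. Those of the xenobiotic genes were -0.55, -0.56 and -0.99. Ugt2b36, Ces2a, Ppargc1a, Maf and Hnf4g did not pass averaged without the p53 KO background. Of 21 genes of mitochondrial respiration, 3 rose and 1 fell.

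Several others among the 15 leading lower genes had varied functions. Bche, butyrylcholinesterase, was 7.06-fold lower (-2.82 ± 0.40), with lowest, median and highest values of 5.19, 6.41 and 8.10 in KO and 8.22, 9.49 and 10.10 in Het. Susd2, a membrane protein with a sushi domain, was 8.79-fold lower (-3.14 ± 0.41), the water and glycerol channel Aqp3 4.72-fold lower (-2.24 ± 0.22) and Dnase1, a secreted nuclease, 5.45-fold lower (-2.45 ± 0.37). Ido1, which degrades tryptophan, fell by 2.50, the ligase gene Trim38 by 2.49, the antimicrobial lectin Reg3a by 2.37, the steroid reductase Akr1c14 by 2.34 and the matrix protein Vwa1 by 2.00. In the 15 genes the log2 differences were between -2.28 and -1.50 in mice that had both genes, -3.03 and -1.53 in the p21 KO background, and -5.63 and -2.28 in the p53 KO background.

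**Figure D4:**
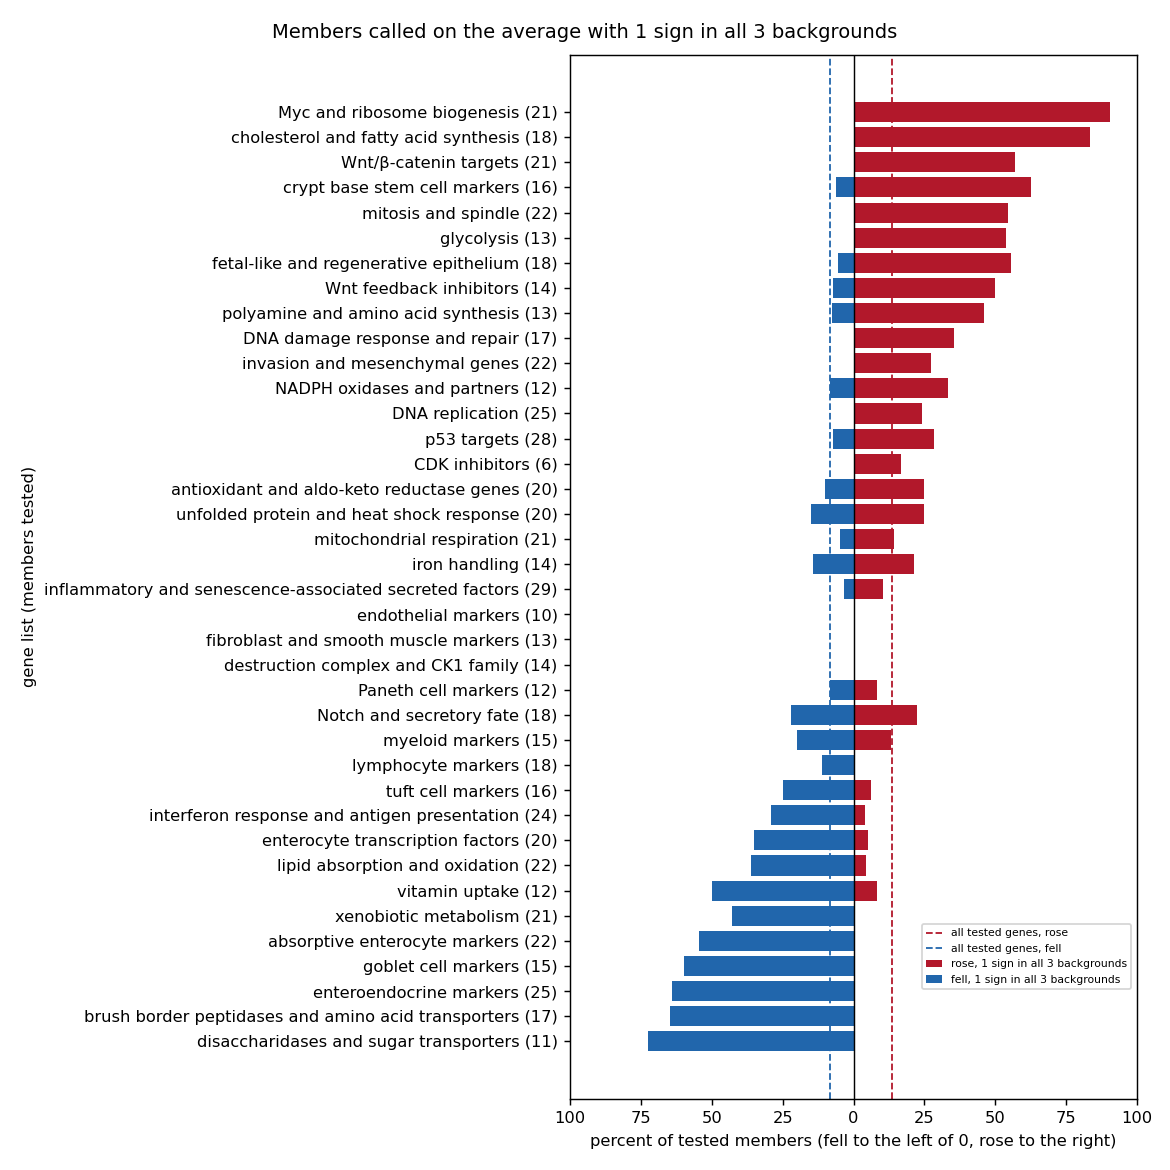
Percent of the tested members of each gene list with at least 5 tested members that were called on the average with the same sign in all 3 backgrounds, rose to the right of 0 and fell to the left; dashed lines mark the shares over all genes tested, 13.6% and 8.22%. The lists of Myc and ribosome biogenesis and of cholesterol and fatty acid synthesis reach farthest to the right, and those of sugar digestion, the brush border and enteroendocrine cells farthest to the left.

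Most enteroendocrine and goblet markers fell, while a smaller share of the Paneth and tuft markers did. Of 25 enteroendocrine markers, 16 fell with a shared sign and 0 rose, and 13 were separated in every background. The medians were -0.50 with both genes, -0.83 without p21 and -0.52 without p53. Averaged without the p53 KO background, 8 were called. In bulk samples such as these, fewer cells of a type and less RNA per cell cannot be told apart. Somatostatin (Sst), a hormone of D cells, was 7.87 and 6.20 in CKIα KO against 9.65 and 8.99 in CKIα Het, 6.83 and 6.10 in CKIα KO/p21 KO against 8.30 and 7.76 in CKIα Het/p21 KO, and 5.80 and 5.68 in CKIα KO/p53 KO against 8.64 and 8.40 in CKIα Het/p53 KO.

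Sst was 4.63-fold lower on average (-2.21 ± 0.27, adjusted p = 0.00201). Both KO arrays were below both Het arrays in each background, as the rule for the leading genes required. The granule protein Chga was 2.44-fold lower (-1.28 ± 0.14), with lowest, median and highest values of 6.01, 6.56 and 7.31 in KO and 7.57, 7.86 and 8.19 in Het. The incretin Gip fell by 2.13, neurotensin (Nts) by 2.01 and Neurod1, a transcription factor of the lineage, by 0.79. Pcsk1, a prohormone convertase, was the 1 marker called higher, and changed sign with p21 knocked out. It did not pass without any 1 of 6 arrays, CKIα KO/p21 KO replicate 2 and CKIα Het replicate 1 among them.

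Of 15 goblet markers, 9 fell and 0 rose, with medians of -0.63 with both genes, -0.60 without p21 and -0.73 without p53. Averaged without the p53 KO background, 5 were called. The trefoil peptide Tff3 was 11.76 and 11.08 in CKIα KO against 12.48 and 12.43 in CKIα Het, 11.40 and 10.45 in CKIα KO/p21 KO against 12.38 and 12.47 in CKIα Het/p21 KO, and 10.66 and 10.33 in CKIα KO/p53 KO against 11.99 and 11.99 in CKIα Het/p53 KO. It was 2.54-fold lower on average (-1.34 ± 0.17), and no KO array reached a Het array. Atoh1, the transcription factor that commits cells to the secretory lineage, fell by 0.86, the mucin Muc2 by 1.15 and the protease Capn9 by 1.42. Of 18 Notch and secretory fate genes, 4 rose and 4 fell, with the Notch ligands Jag1 at 0.57 ± 0.09 and Dll1 at -0.83 ± 0.19 and the goblet cell factor Spdef at -0.41 ± 0.09. Of 16 tuft markers, 4 fell and 1 rose, with medians of -0.11 with both genes, -0.28 without p21 and -0.33 without p53. Of 12 Paneth markers 1 rose, Mmp7 (1.60 ± 0.31), and 1 fell, with medians of -0.57, -0.22 and 0.40.

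Many crypt and regenerative genes rose on the average. Of 16 crypt base stem cell markers, some of which are also Wnt targets, 10 rose and 1 fell. Their medians were 0.13 with both genes, 0.75 without p21 and 1.05 without p53, and 2 were separated in every background. The RNA-binding protein Msi1 was at 1.04 ± 0.18 and Cdca7, a Myc-responsive gene, at 1.06 ± 0.19. Of 18 genes of fetal-like and regenerative epithelium, 10 rose and 1 fell, with medians of 0.39, 0.61 and 1.46. Among them were Il1rn, the interleukin 1 receptor antagonist (1.93 ± 0.34), and Ereg, a ligand of the EGF receptor (1.21 ± 0.23). Msi1, Cdca7 and Il1rn did not pass averaged without the p53 KO background, and Ereg did not pass averaged without the p21 KO background. Of 22 invasion and mesenchymal genes, 6 rose and 0 fell. Plat, tissue plasminogen activator, differed by 0.38 with both genes, 0.87 without p21 and 4.24 without p53, and the matrix protease Mmp14 by 0.91, 1.32 and 2.06. Of 29 inflammatory and senescence-associated secreted factors, 3 rose and 1 fell, with Igfbp4, which binds insulin-like growth factors, at 2.39 ± 0.39 and interleukin 15 (Il15) at -1.65 ± 0.26. Of 20 unfolded protein and heat shock genes, 5 rose and 3 fell, with the chaperones Hspd1 and Hspa8 at 0.79 ± 0.10 and 0.68 ± 0.11 and the stress genes Atf3 and Trib3 at -1.19 ± 0.11 and -0.99 ± 0.15. Plat, Mmp14, Igfbp4, Il15, Hspa8 and Trib3 also did not pass averaged without the p53 KO background.

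Of 24 interferon response and antigen presentation genes, 7 fell and 1 rose with a shared sign, and their median was 0.11 with both genes, -0.37 without p21 and -0.15 without p53. The class II genes H2-Ab1 and H2-Eb1 fell by 2.02 and 1.40, the immunoproteasome subunit Psmb8 fell by 0.79 and Ifit2, an interferon-induced gene, rose by 1.54 ± 0.27. Of 18 lymphocyte markers, 2 fell and 0 rose, with medians of -0.13 with both genes, -1.26 without p21 and -0.20 without p53. The 2 were Cd2, of T cells, and Cd79b, of B cells, which did not pass without any 1 of 7 and of 9 arrays, CKIα KO replicate 2 and CKIα Het replicate 1 among them. The median of the list per array was 5.08 to 6.64 in KO and 5.87 to 6.95 in Het. Of 15 myeloid markers, 2 rose and 3 fell, with array medians of 4.41 to 5.44 in KO and 4.44 to 5.41 in Het. Fibroblast and smooth muscle markers had 0 of 13 called by limma on the average and array medians of 4.92 to 6.21 in KO and 4.51 to 6.48 in Het, and endothelial markers had 0 of 10 called. An unadjusted p under 0.05 was found for 0 of the fibroblast and smooth muscle markers and 1 of the endothelial markers. The 1 red blood cell marker measured, Alas2, was at -0.10 ± 0.07. The part of such cells in the falls of the class II genes was not tested.

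The size of the difference was smallest with both genes and largest in p53 KO, with p21 KO between, in 1773 of the 3653 called genes with a shared sign (48.5%). The difference with p53 knocked out was the largest of the 3 for 2404 of them (65.8%), that with p21 knocked out for 952 and that with both genes for 297. The medians of the genes that rose were 0.31 with both genes, 0.62 without p21 and 0.79 without p53, and those of the genes that fell were -0.36, -0.56 and -0.73. The 3653 genes were called on the average of these same differences, so their shares and medians describe them and test nothing. The same shares were not taken over all genes tested. Single KO arrays differed as well. For the separated genes that rose, the median log2 value over the mean of the background's own Het arrays was 0.28 and 0.50 in CKIα KO, 0.44 and 0.88 in CKIα KO/p21 KO and 0.78 and 0.80 in CKIα KO/p53 KO. In CKIα KO and CKIα KO/p21 KO the lower value of each pair was replicate 1. These genes were chosen on the same values, so the medians describe them and test nothing.

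The test of a difference among the 3 backgrounds passed for 2 genes by limma (0.012%), and 1955 genes had an unadjusted p under 0.05 (11.7%). Among the called genes with a shared sign 0 passed and 646 had an unadjusted p under 0.05. Dglucy, the mitochondrial enzyme of D-glutamate breakdown, was 8.65 and 8.58 in CKIα KO against 8.51 and 8.42 in CKIα Het, 8.77 and 8.27 in CKIα KO/p21 KO against 7.86 and 7.94 in CKIα Het/p21 KO, and 5.81 and 5.85 in CKIα KO/p53 KO against 8.26 and 7.99 in CKIα Het/p53 KO. Its F test had an adjusted p of 0.0125. Cyp1b1, a cytochrome P450, passed as well (adjusted p = 0.0211), with a difference of 2.52 without p53, 0.01 without p21 and -0.20 in mice with both genes. Neither shared its sign across the backgrounds, and both were low or high only on the 2 CKIα KO/p53 KO arrays.

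The test of the p53 KO difference minus the difference with both genes called 3 genes (0.0179%), Dglucy, Cyp1b1 and Slc38a4. Slc38a4, a carrier of amino acids, shared its sign, at 3.91 and 3.97 in CKIα KO against 3.68 and 3.52 in CKIα Het, 4.41 and 5.37 in CKIα KO/p21 KO against 3.87 and 3.63 in CKIα Het/p21 KO, and 7.14 and 7.16 in CKIα KO/p53 KO against 3.83 and 3.83 in CKIα Het/p53 KO. The difference of the differences was 2.98 ± 0.36 (adjusted p = 0.0496), close to the threshold. The same test for p21 KO called 0 genes by limma, and 1359 had an unadjusted p under 0.05 (8.13%). The F test called 172 genes without CKIα KO/p21 KO replicate 1, 112 without its replicate 2, 12 without CKIα KO/p53 KO replicate 1, 5 without CKIα Het replicate 2 and 4 without CKIα KO/p53 KO replicate 2. It called 0 without any 1 of CKIα Het replicate 1, CKIα KO replicate 2, either CKIα Het/p21 KO array and CKIα Het/p53 KO replicate 1.

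At the edge of the call, Psd (-0.24) had an adjusted p of 0.0499 on the average and Ceacam16 (-0.36) had 0.05002, inside and outside the threshold. Psd did not pass without any 1 of 11 of the 12 arrays, while Ceacam16 passed without CKIα KO replicate 1, CKIα Het replicate 2 or CKIα Het/p21 KO replicate 1.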

How the data were processed

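Total RNA of mouse enterocytes was hybridized to Affymetrix arrays. Per the labels' protocols, the authors extracted intensities with Expression Console 1.1 (RMA Sketch) and normalized them by the median. The deposited values were taken as log2 intensities from their range, since the labels do not give the base.

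Probe sets with 1 gene symbol (21789 of 35556) gave 19938 genes, the probe set with the highest mean standing for the 999 genes with several. A gene was tested when at least 2 arrays exceeded the array's 25th percentile, which left 16721. All 12 arrays were fitted with limma 3.58.1 in R 4.3.3, with 6 group means and 6 residual degrees of freedom. Contrasts were KO minus Het in each background, their average, and their differences. P-values are two-sided, errors are standard errors of the fit, and calls use a Benjamini-Hochberg adjusted p under 0.05. Members of 39 gene lists, 716 genes in all with 34 in more than 1 list, were counted.

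The rule named, among called, sign-sharing genes separated in every background, the 15 highest and 15 lowest by the smallest difference; up to 4 members of each list by p; the targeted genes; and up to 6 genes by the F test and up to 6 of differing sign. Hmgcs1, Idi1, Cyp51 and the other promoter genes, Insig1, Dhcr7, Srebf1, Pcsk1, Psd and Ceacam16 were named after their values were seen. The members and lists were chosen with earlier results of these data known. The fit was tested on simulated data. Alternatives were the filter, a further quantile normalization, an intensity trend, array weights, the mean of probe sets, an additive model, the replicate block, each background or array left out, and an adjusted p under 0.01.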

Additional observations from a re-analysis of the deposited data

Results flagged for a closer look

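The 13th array, whose title names CKIα KO/p53 KO while its genotype label names the CKIα knockout alone, entered no comparison. On it, 1080 of the 1229 separated genes that were higher on the 6 KO arrays lay above all 6 Het arrays (87.9%), where 21.5% of all genes tested did. Of the 658 separated genes that were lower, 558 lay below all 6 Het arrays (84.8%), where 20.8% of all genes tested did. Nothing in these values says which of its labels is right.

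For 3 genes the KO minus Het difference in the p53 KO background was not the same as where p53 and p21 were present (limma, adjusted p under 0.05 for the difference of the differences). The difference was -2.45 ± 0.24 for Dglucy and 2.72 ± 0.27 for Cyp1b1 (adjusted p = 0.0154 for each), and 2.98 ± 0.36 for Slc38a4 (adjusted p = 0.0496). The F test among the 3 backgrounds had an adjusted p of 0.0125 for Dglucy and 0.0211 for Cyp1b1. Each rests on 2 arrays per group, and 0 genes passed this difference of differences without any 1 of 7 arrays, either CKIα KO array and CKIα Het replicate 1 among them, while 243 passed without either CKIα KO/p21 KO array.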

How the results depend on the processing

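Averaged without the p53 KO background, 420 genes were called higher and 197 lower, 390 and 186 with a shared sign; list counts were 8 for cholesterol and fatty acid synthesis, 9 for Myc and ribosome biogenesis, 1 for mitosis, 0 for DNA replication, 2 for Wnt targets, 2 for sugar digestion, 8 for enteroendocrine and 5 for goblet markers. Averaged without p21 KO the counts were 1405 and 844, 1300 and 747 with a shared sign, with 5 mitosis and 2 replication genes. At an adjusted p under 0.01 the average gave 1058 and 489, 1006 and 475 with a shared sign, p53 KO gave 271 and 158, p21 KO 9 and 0, the mice with both genes 2 higher, and the tests of difference 0. A further quantile normalization gave 2 higher with both genes, 146 higher with p21 KO and 5 for the p53 KO difference, and 52.5% of sign-sharing calls were higher there against 62.4%. Array weights gave 10 higher and 1 lower with both genes and 90 and 29 with p21 KO. Without the filter p21 KO gave 126 and 37. The causes were not tested.

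The replicate numbers were not shown to pair the arrays: same-numbered arrays correlated at -0.162 to 0.248 in their deviations. Xist was nevertheless low on every replicate 1 array and high on every replicate 2 array, so the block also takes up that split. With the replicate block the average gave 2540 higher and 1442 lower, the mice with both genes 2 higher, the F test 1 and the p53 KO difference 2. It ended the call of Psd on the average, of Cyp1b1 by the F test (adjusted p = 0.0710) and of Slc38a4 by the p53 KO difference (0.0991).

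Leaving out 1 array at a time gave 1694 to 3032 higher and 960 to 1839 lower, and with a shared sign 1410 to 2562 and 843 to 1613. With both genes it gave 0 to 57 higher and 0 to 41 lower, with p21 KO 0 to 1695 and 0 to 1082, and with p53 KO 10 to 2207 and 10 to 1439. The F test gave 0 to 172, the p21 KO difference 0 to 108, the p53 KO difference 0 to 243 and the test in all 3 backgrounds 0 to 24. Genes with 1 sign were 6634 to 9379, and separated genes 1402 to 2395 above and 864 to 1586 below. List counts were 13 to 15 for cholesterol, 16 to 20 for Myc and ribosome, 8 to 14 for mitosis, 2 to 13 for replication, 6 to 13 for Wnt targets, 4 to 9 for sugar digestion, 13 to 18 for enteroendocrine and 8 to 10 for goblet markers.

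Of 143 named genes, 56 kept direction and side of the threshold in all alternatives. Reversed were Dglucy (0.38) and Cyp1b1 (-0.10) averaged without p53 KO, Alas2 (0.063) and Csnk1a1 (-0.052) without p21 KO, and Dhcr7 (0.039) without the background with both genes. Csnk1a1 lay between -0.023 and 0.050 with single arrays left out, below 0 in 3 of these settings.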
